A study of Equus caballus with 68 samples.

Results

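Colony-stimulating factors and their receptors were followed in horse bone marrow mononuclear cells (BMNC) that were cultured in synovial fluid. The 9 genes were chosen by symbol, namely the ligands CSF1, CSF2, CSF3 and IL34 and the receptors CSF1R, CSF2RA, CSF2RB, CSF3R and FLT3. Of these, 7 carried their symbol in the table of 30371 genes, and CSF2RA and CSF2RB, the receptor subunits for the CSF2 product, were not analysed here. The cells came from 8 Thoroughbred horses aged 3 to 9 years. RNA was sequenced from uncultured cells (0 h, 8 libraries) and from cells kept in neat autologous synovial fluid, which was either healthy (SF) or taken from joints of the same horse inflamed with lipopolysaccharide (ISF). Each fluid was sampled at 48 h (n = 7 horses), 96 h (n = 8), 6 d (n = 8) and 10 d (n = 7), which gave 68 libraries, each from 1 horse. The cells of every group were a mixture from marrow, no growth factor is described as added, and each culture was a single well, so the spread given here lies between horses.

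CSF-1 and IL-34 are both ligands of the receptor tyrosine kinase CSF1R, through which monocytes and macrophages survive, divide and mature. G-CSF, the product of CSF3, acts through CSF3R on cells of the neutrophil line, and GM-CSF, the product of CSF2, acts on several myeloid cell types. FLT3 is a receptor tyrosine kinase of early haematopoietic progenitors and of the precursors of dendritic cells.

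Levels are given in GeTMM, a unit of reads per gene length with a scaling factor for each library, and can be compared between genes as well as between libraries. A library held 15.7 to 36.0 M reads on genes (median 22.3 M), and 1 read on a gene of 1 kilobase was worth 0.0337 to 0.0979 GeTMM. Differences are on the log2(GeTMM + 1) scale, which understates the change of genes near or below 1 GeTMM, and FDR values (Benjamini-Hochberg) come from limma over 14570 genes with a threshold of 0.05. The SF library of the horse Moon at 6 d stood apart as a whole, with GeTMM values that summed to 2321940 over all genes, compared with 905668 to 1012755 in the other 7 of its group, and a correlation with the profile of its own horse of 0.617, compared with 0.859 to 0.947. Results of the members for SF at 6 d are therefore also given without it where it moves them. Compared with profiles of each horse over 200 genes, 66 of 68 libraries matched the horse they were labelled with best, while in ISF at 96 h the library of Dealings matched the profile of Dreamer and that of Dreamer the profile of Dealings. Counts of horses at 96 h in ISF therefore leave out these 2 horses, and results of the members that rest on these libraries are also given without them. Where Dealings or Dreamer alone was left out, this went by label. The ISF library left out at 96 h was then the one that matched the other of these 2 horses.

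The BMNC label was checked against markers. At 0 h the 6 neutrophil precursor markers found in the table summed to 11356 to 20997 GeTMM and the 6 monocyte or macrophage markers to 168 to 285 GeTMM. At 10 d the order was the opposite, with neutrophil precursor sums of 2.15 to 1648 GeTMM in SF and 0.759 to 63.7 in ISF, and macrophage sums of 10400 to 27161 in SF and 11161 to 18936 in ISF. In such bulk samples a change in the share of a cell type and a change in RNA per cell cannot be told apart. The part of cell composition in the levels below was not tested.

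In BMNC at 0 h CSF3R was the most abundant of the 7 genes in mean level, followed by CSF1R, FLT3, CSF1, CSF3, IL34 and CSF2. At 10 d CSF1R led in both fluids, followed by CSF1 and CSF3R. Between these times the ligand CSF1 and its receptor CSF1R rose, IL34 appeared, and CSF3, CSF3R and FLT3 fell. Over the whole 10 d all 6 tested members changed in both fluids, at FDR values of 0.00915 or lower. This must be read against a background of 74.5% of all tested genes in ISF and 69.6% in SF. In each fluid 3 members rose and 3 fell. Their median log2 change, 0.46 in ISF and 0.14 in SF, therefore lies between risers and fallers and describes no member. Over all genes the median was -0.03 and -0.01. CSF2 did not reach 0.5 GeTMM in 7 libraries and was not tested.

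**Figure D1:**
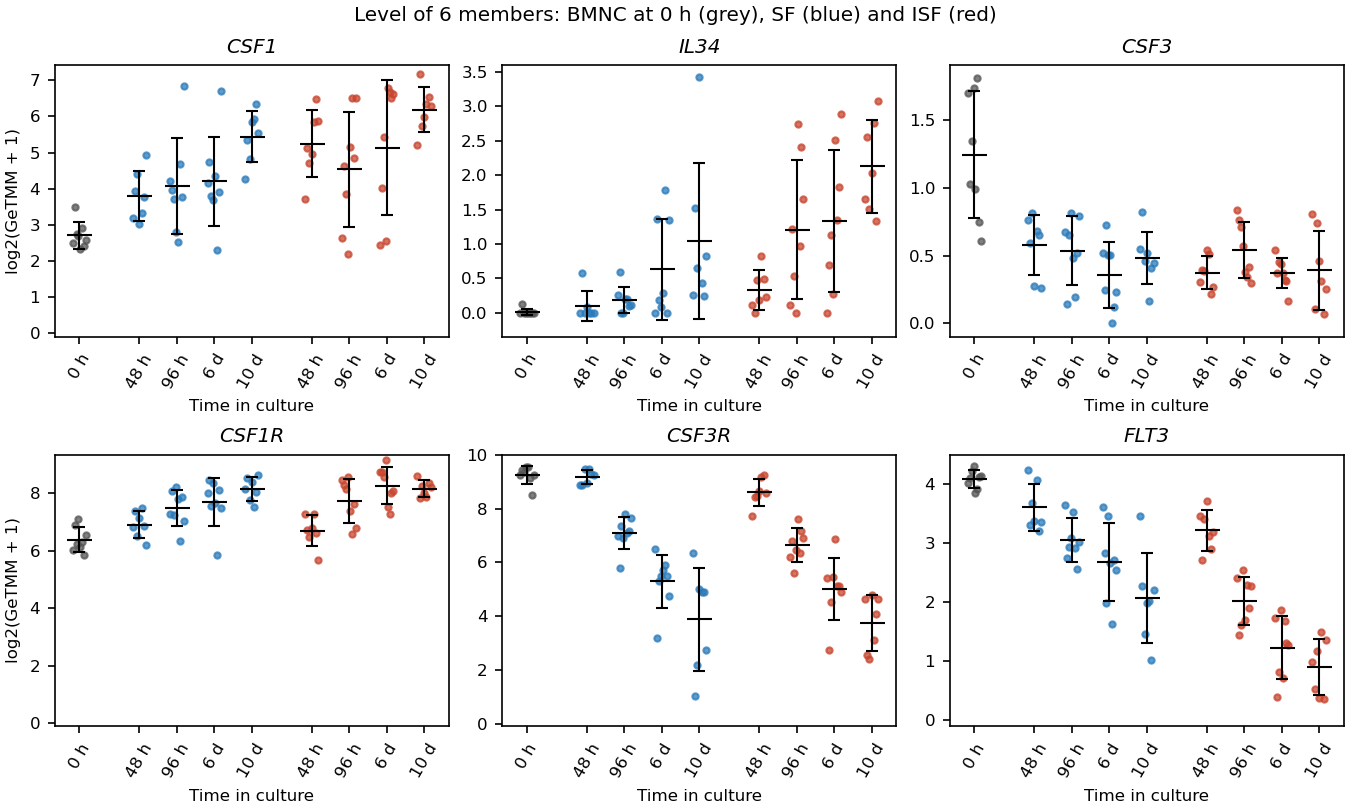
Level of the 6 tested members as log2(GeTMM + 1) on the y axis against time in culture on the x axis, for BMNC at 0 h (grey), SF (blue) and ISF (red). Points are single horses, the long bar is the mean and the whiskers are 1 SD (n = 7 or 8), showing CSF1 and CSF1R climbing, IL34 leaving 0, and CSF3R and FLT3 falling in both fluids.

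CSF1, the macrophage colony-stimulating factor, was low and even in all horses before culture. It lay at 4.03 to 10.3 GeTMM (median 5.26, n = 8) at 0 h. In ISF it lay at 12.1 to 89.2 (median 34.1) at 48 h, 3.58 to 89.7 (25.9) at 96 h, 4.44 to 109 (66.2) at 6 d and 36.0 to 143 (77.1) at 10 d. In SF the levels were 7.09 to 29.6 (median 12.6) at 48 h, 4.77 to 113 (13.7) at 96 h, 3.96 to 102 (15.4) at 6 d and 18.4 to 80.8 (45.5) at 10 d. The ISF libraries at 48 h and the libraries of both fluids at 10 d all lay above all 8 libraries at 0 h, whereas SF at 48 h and both fluids at 96 h and 6 d overlapped with them.

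CSF1 rose by 2.54 on the log2 scale (SE 0.58) between 0 and 48 h in ISF (limma FDR = 0.000199), where 3 of 6 tested members changed against 52.7% of all genes. In SF the difference over this interval was 1.09 (SE 0.58, FDR = 0.125), although CSF1 was higher in 7 of 7 horses, and with the horse as a replicate block it passed (1.15, FDR = 0.0367). Here 1 of 6 members changed against 45.4% of all genes. None of the later intervals gave a change of CSF1 past the threshold in either fluid. The net rise to 10 d was 3.47 (SE 0.58, FDR = 3.54e-07) in ISF and 2.73 (SE 0.58, FDR = 3.94e-05) in SF, in 7 of 7 horses in each fluid.

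Between the fluids, the mean CSF1 level at 48 h was 43.6 ± 26.0 GeTMM (SD, n = 7) in ISF and 14.4 ± 8.06 (n = 7) in SF. It was higher in ISF in 7 of 7 horses. The log2 difference of 1.45 (SE 0.60, 95% interval 0.25 to 2.65) did not pass the FDR over all genes (0.236), and no alternative setting brought it past (FDR 0.064 to 0.504). At 10 d it was again higher in ISF in 7 of 7 horses, with a difference of 0.74 (interval -0.47 to 1.94, FDR = 0.425). The differences were 0.47 (interval -0.65 to 1.60, FDR = 0.679) at 96 h, with 3 of 6 horses higher, and 0.92 (-0.21 to 2.05, FDR = 0.222) at 6 d, with 4 of 8 horses higher. Without the SF library of Moon the value for CSF1 at 6 d was 0.65 (FDR = 0.396). The horses were thus split at the middle time points.

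IL34, the other ligand of CSF1R, was near absent before culture. At 0 h 7 of 8 libraries held no read of it, and the remaining library stood at 0.0904 GeTMM. It reached 0.188 to 9.69 GeTMM (median 0.574, n = 7) in SF and 1.52 to 7.46 (median 3.07, n = 7) in ISF at 10 d, so that every library at 10 d lay above every library at 0 h. The levels rest on few reads, with 0 to 118 reads in a library and 1023 reads over all 68.

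The ISF cultures held more IL34 at each time point in the median. At 48 h the range was 0 to 0.772 GeTMM (median 0.172) in ISF and 0 to 0.498 (median 0) in SF. At 96 h it was 0 to 5.66 (median 1.15) in ISF and 0 to 0.512 (median 0.116) in SF, and at 6 d 0 to 6.42 (median 1.38) and 0 to 2.43 (median 0.182). The 2 fluids overlapped at each of the 4 time points.

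IL34 was higher in ISF than in SF at 96 h, by 1.02 on the log2 scale (SE 0.35, limma FDR = 0.0463), and at 10 d, by 1.08 (SE 0.37, FDR = 0.0298). At 96 h it was higher in 4 of 6 horses and at 10 d in 6 of 7. The difference was 0.24 (95% interval -0.50 to 0.98, FDR = 0.844) at 48 h and 0.70 (0.01 to 1.40, FDR = 0.121) at 6 d, where it was 0.87 (FDR = 0.0482) without the SF library of Moon. Both calls lay close to the threshold. Over 18 alternatives the FDR ran from 0.0161 to 0.187 at 96 h and from 0.00119 to 0.12 at 10 d, and without the libraries of Dealings and Dreamer in ISF the value at 96 h was 1.13 (FDR = 0.0584). Leaving out the horse Ollie gave the highest FDR at 96 h (0.84, FDR = 0.187) and leaving out RimRun the highest at 10 d (0.88, FDR = 0.12), and the call was also lost without Dealings, Dreamer, Lurie or RimRun at 96 h and without Catnip, Dealings, Dreamer, Moon or Ollie at 10 d.

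The net rise of IL34 from 0 h to 10 d was 2.11 (SE 0.36, FDR = 4.51e-07) in ISF and 1.03 (SE 0.36, FDR = 0.00915) in SF. The SF value rests in part on the library of Lurie, at 9.69 GeTMM, without which it was 0.64 (FDR = 0.0844). In the same library the 5 fibroblast or stromal markers summed to 4038 GeTMM, while the other 6 SF libraries at 10 d held 0.406 to 517 and the ISF libraries at 10 d 0.123 to 49.2. The part of stromal cells in the SF value was not tested.

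CSF3, which encodes G-CSF, fell within 48 h. It lay at 0.521 to 2.52 GeTMM (median 1.29, n = 8) at 0 h, 0.2 to 0.762 (median 0.572, n = 7) in SF and 0.164 to 0.453 (median 0.305, n = 7) in ISF at 48 h. The ISF libraries did not overlap with those at 0 h, and the SF libraries did. The fall was 0.87 (SE 0.14, FDR = 1.55e-07) in ISF and 0.67 (SE 0.14, FDR = 3.75e-05) in SF, in 7 of 7 horses in both. No later interval and no comparison of the fluids passed the threshold, with differences between the fluids of -0.20 to 0.02 on the log2 scale. CSF3 rests on 0 to 58 reads in a library.

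CSF2, which encodes GM-CSF, was at the limit of detection. In all 68 libraries it had 9 reads, at most 2 in 1 library, and 61 libraries had none. Reads were found in 6 of 30 ISF libraries and in 1 of 30 SF libraries, and in none at 0 h. A count of 0 allows up to 3 reads, which is 0.134 to 0.39 GeTMM for this gene depending on the library, and a level below this was not detectable at this depth. These limits cover counting error only.

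CSF1R, the receptor for CSF-1 and IL-34, rose in both fluids. It lay at 55.9 to 134 GeTMM (median 75.9, n = 8) at 0 h. In SF it lay at 71.9 to 177 (median 114) at 48 h, 79.2 to 293 (187) at 96 h, 55.9 to 352 (227) at 6 d and 183 to 397 (283) at 10 d. In ISF the levels were 49.5 to 155 (median 105) at 48 h, 93.4 to 370 (236) at 96 h, 154 to 570 (320) at 6 d and 223 to 387 (296) at 10 d. The libraries at 48 h overlapped with those at 0 h, and by 6 d in ISF and 10 d in SF they no longer did.

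The net rise of CSF1R was nearly equal in the 2 fluids, at 1.77 (SE 0.30, FDR = 3.38e-07) in ISF and 1.77 (SE 0.30, FDR = 4.84e-07) in SF. In ISF the interval from 48 to 96 h passed the threshold (1.03, SE 0.30, FDR = 0.00928), with CSF1R higher in 5 of 5 horses. The change did not pass without the libraries of Dealings and Dreamer (0.86, FDR = 0.0612). Nor did it pass without all libraries labelled Dreamer (0.93, FDR = 0.0594). In this interval 3 of 6 members changed against 19.0% of all genes. In SF the same interval gave 0.58 (SE 0.30, FDR = 0.152), and 0.70 (FDR = 0.01) with the replicate block, in 7 of 7 horses. The count there was 1 of 6 members against 27.3% of all genes, and 3 of 6 with the replicate block, which called 32.0% of all genes.

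Between the fluids CSF1R did not pass the threshold at any time point. The largest difference was at 6 d, at 0.57 (95% interval -0.00 to 1.15, FDR = 0.128), with ISF higher in 6 of 8 horses, and with the replicate block this passed (FDR = 0.0279). At 10 d the difference was 0.01 (interval -0.61 to 0.62, FDR = 0.992). The SF group at 6 d held the library of Moon at 55.9 GeTMM, compared with 179 or more in the other 7 libraries, and without it the difference in CSF1R at 6 d was 0.31 (FDR = 0.393).

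CSF3R, the G-CSF receptor, showed the largest net change of the 6 members on the log2(GeTMM + 1) scale in both fluids. With a pseudocount of 1 this scale compresses the change of IL34, which started near 0 and whose fitted net rise in ISF was 6.09 with limma voom on recovered reads, while the lowest value for CSF3R in ISF over the 19 alternatives was -5.68. It lay at 367 to 753 GeTMM (median 637, n = 8) at 0 h, and at 467 to 710 (median 606) in SF and 212 to 605 (380) in ISF at 48 h. It then fell to 55.1 to 220 (median 140) in SF and 47.4 to 195 (98.6) in ISF at 96 h. At 6 d the levels were 8.20 to 90.1 (44.0) in SF and 5.62 to 116 (33.8) in ISF, and at 10 d 1.03 to 81.5 (28.9) and 4.35 to 26.5 (16.1). The libraries at 48 and at 96 h did not overlap in either fluid.

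Between 0 and 48 h the change in CSF3R was -0.65 (95% interval -1.59 to 0.30, FDR = 0.257) in ISF and -0.09 (-1.04 to 0.86, FDR = 0.902) in SF. The fall between 48 and 96 h was 1.97 (SE 0.47, FDR = 0.00154) in ISF and 2.07 (SE 0.47, FDR = 0.000543) in SF. It continued between 96 h and 6 d, by 1.63 (SE 0.46, FDR = 0.021) and 1.81 (SE 0.46, FDR = 0.019). This call was lost in ISF without Ollie (-1.57, FDR = 0.0853) or RimRun (-1.57, FDR = 0.0767), and in SF without Dreamer (-1.77, FDR = 0.0579), Ollie (-1.82, FDR = 0.0646) or RimRun (-1.65, FDR = 0.111). The counts in that interval were 2 of 6 members in ISF against 6.38% of all genes and 1 of 6 in SF against 2.05%. The last interval gave -1.27 (FDR = 0.0766) in ISF and -1.42 (FDR = 0.0637) in SF, each lower in 7 of 7 horses, and both passed with the replicate block (FDR = 0.0214 and 0.016).

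Over the 10 d CSF3R fell by 5.51 (SE 0.47, FDR = 3.12e-16) in ISF and fell by 5.38 (SE 0.47, FDR = 1.29e-15) in SF. Between the fluids it did not pass the threshold at any time point, with differences of -0.56 (interval -1.54 to 0.42) at 48 h, -0.46 (-1.38 to 0.45) at 96 h, -0.28 (-1.20 to 0.63) at 6 d and -0.13 (-1.11 to 0.85) at 10 d. CSF3R was lower in ISF in 7 of 7 horses at 48 h and in 6 of 6 at 96 h. The neutrophil precursor markers had median sums of 14556 GeTMM at 0 h and, from 48 h to 10 d, of 2904, 2753, 1613 and 172.9 in SF and 3222, 1926, 192.4 and 18.21 in ISF. In GeTMM most of the fall of the sum lay between 0 and 48 h and was carried by LTF. Its median was 10100 at 0 h, and 624.4 in SF and 177.4 in ISF at 48 h. In SF the median sum was nearly level from 48 to 96 h. At 0, 48 and 96 h in ISF, MPO had medians of 681.9, 724 and 132 and ELANE of 1321, 724.9 and 218.1. AZU1 had 1478, 1098 and 303.6. From 48 to 96 h in ISF, LTF rose to 539.9, OLFM4 went from 280.1 to 288.6 and CEBPE from 49.05 to 46.77. The part of neutrophil precursors in the CSF3R result was not tested.

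The order of the 2 lineage receptors turned over between 48 h and 6 d. CSF3R exceeded CSF1R in 8 of 8 libraries at 0 h, with a ratio of 5.6 to 10.9 (median 6.89). At 48 h it did so in 7 of 7 libraries of each fluid, at a median ratio of 4.22 in SF and 3.73 in ISF. At 96 h it did so in 4 of 8 SF libraries (median 0.914) and 2 of 8 ISF libraries (0.547), at 6 d in 1 of 8 and 0 of 8, and at 10 d in none of 7 in either fluid. The lowest ratio was 0.00284, in SF at 10 d.

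**Figure D2:**
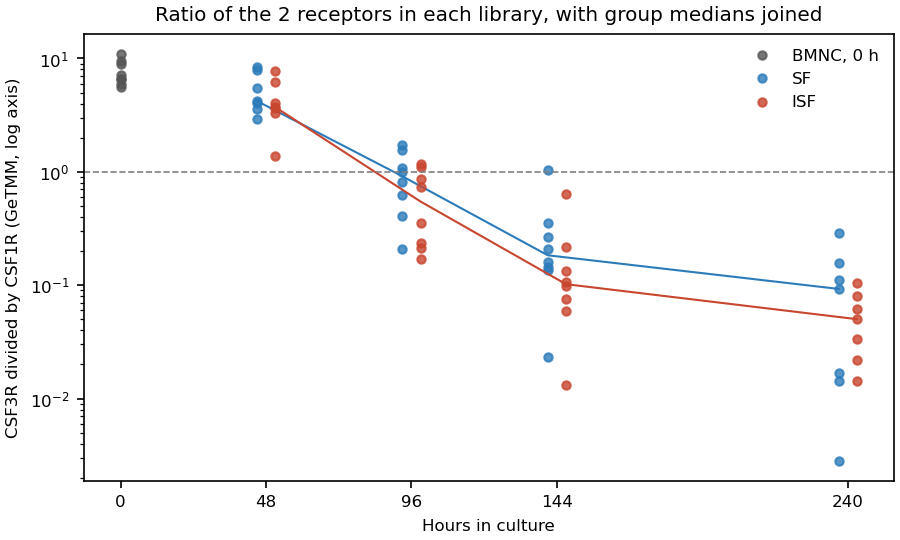
Ratio of CSF3R to CSF1R, in GeTMM on a log axis, in each library against hours in culture, for BMNC at 0 h (grey), SF (blue) and ISF (red). Lines join group medians, which pass below 1 (dashed line) at 96 h at 0.914 in SF and 0.547 in ISF.

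FLT3 was the only one of the 6 tested members that was lower in ISF at more than 1 time point past the threshold. It lay at 13.6 to 18.9 GeTMM (median 16.4, n = 8) at 0 h. In SF it lay at 8.21 to 18.0 (median 9.40) at 48 h, 4.91 to 11.6 (6.92) at 96 h, 2.10 to 11.3 (5.47) at 6 d and 1.04 to 10.1 (3.08) at 10 d. In ISF the levels were 5.59 to 12.2 (median 8.11) at 48 h, 1.72 to 4.87 (3.29) at 96 h, 0.323 to 2.67 (1.46) at 6 d and 0.283 to 1.81 (0.994) at 10 d. At 96 h the highest ISF library lay just below the lowest SF library, and at 6 and 10 d the ranges overlapped.

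At 96 h FLT3 was lower in ISF by 1.03 (SE 0.24, limma FDR = 0.00209), at 6 d by 1.45 (SE 0.24, FDR = 2.99e-06) and at 10 d by 1.17 (SE 0.26, FDR = 0.0005). The horses with a lower level in ISF were 6 of 6, 7 of 8 and 7 of 7. At 48 h the difference was -0.39 (95% interval -0.90 to 0.12, FDR = 0.522), with 6 of 7 horses lower in ISF. Without the SF library of Moon the difference in FLT3 at 6 d was -1.60 (FDR = 3.24e-07). FLT3 passed the threshold at the 3 later times under all 19 alternative settings, with FDR values of 0.0279 at most.

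The counts of members that differed between the fluids were 0 of 6 at 48 h against 1.68% of all genes, 2 of 6 at 96 h (10.5%), 1 of 6 at 6 d (30.2%) and 2 of 6 at 10 d (20.8%). The count of 0 at 48 h comes from limma, and 1 member, CSF1, had an unadjusted p under 0.05, as had 2035 of all 14570 genes. No member was called at 48 h with limma voom on recovered reads, which called 174 of all genes.

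**Figure D3:**
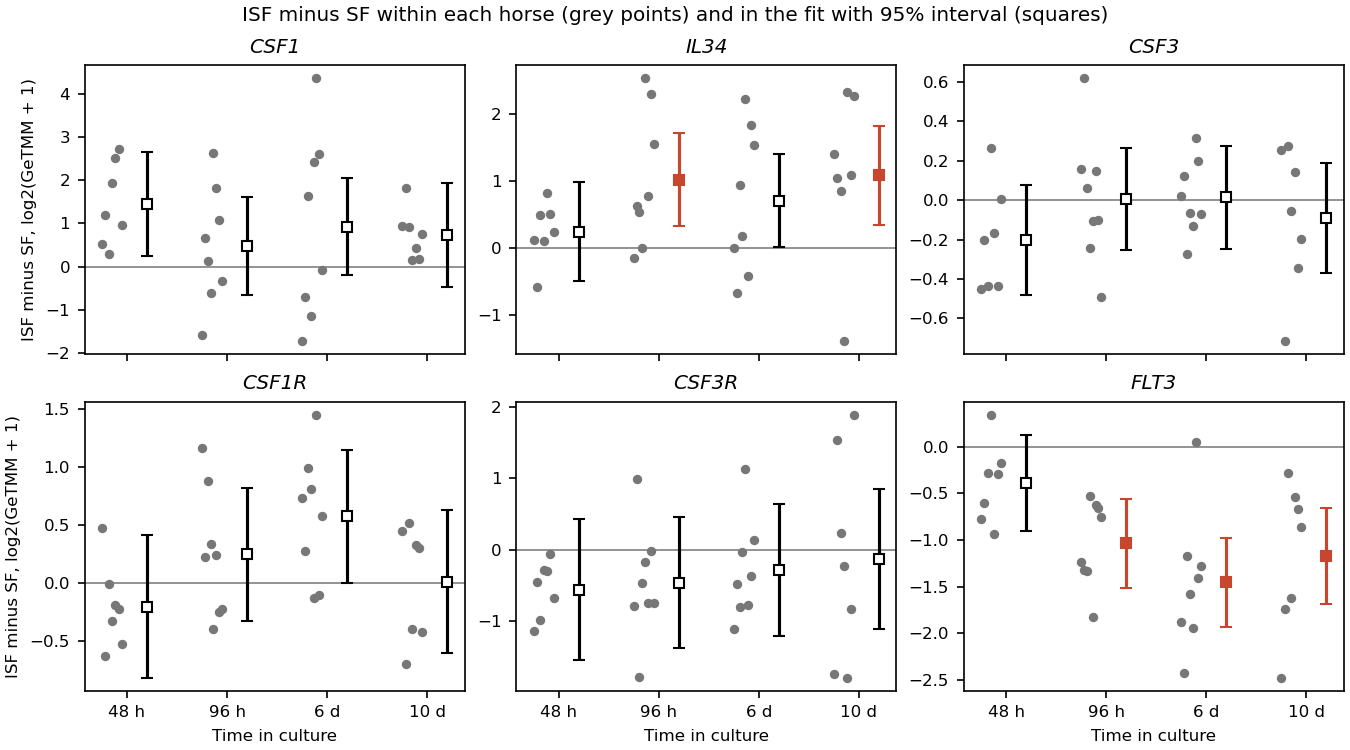
Difference between ISF and SF in log2(GeTMM + 1) at 4 time points in culture for the 6 tested members, with each grey point 1 horse (n = 7 or 8) and the square the fitted difference with its 95% interval. At 96 h the grey points include Dealings and Dreamer as labelled, whose ISF libraries each matched the profile of the other horse. Red squares passed an FDR of 0.05, which was IL34 at 96 h and 10 d (1.02 and 1.08) and FLT3 at 96 h, 6 d and 10 d (-1.03, -1.45 and -1.17).

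FLT3 fell in ISF from the first interval, by 0.87 (SE 0.25, FDR = 0.0024) between 0 and 48 h, by 1.20 (SE 0.25, FDR = 0.000249) between 48 and 96 h and by 0.79 (SE 0.24, FDR = 0.0319) between 96 h and 6 d. The last of these 3 passed under 13 of 19 alternatives, and was lost with no filter (FDR = 0.0553) and without Dealings, Dreamer, Lurie, Ollie or RimRun (FDR 0.0632 to 0.114). In SF no single interval passed, with changes of -0.38 to -0.61, but the net fall to 10 d did, at 2.02 (SE 0.25, FDR = 1.26e-10) compared with 3.19 (SE 0.25, FDR = 4.82e-18) in ISF. With the replicate block the SF changes passed between 0 and 48 h (-0.49, FDR = 0.0485) and between 48 and 96 h (-0.55, FDR = 0.0379). Whether the difference between the fluids changed was tested directly. Between 48 h and 10 d the change for FLT3 was -0.78 (interval -1.51 to -0.06, FDR = 0.253).

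The test of such changes called no member. The counts were 0 of 6 between 48 and 96 h (0.0206% of all genes), 0 of 6 between 96 h and 6 d (0%), 0 of 6 between 6 and 10 d (0.226%) and 0 of 6 between 48 h and 10 d (2.99%). At an unadjusted p under 0.05 there was 1, FLT3 between 48 h and 10 d, where 2401 of all 14570 genes were under it. Limma voom called no member, and 0, 0, 12 and 333 of all genes in the same order of intervals. Between 6 and 10 d no member was called in either fluid, against 10.5% of all genes in ISF and 4.78% in SF. At an unadjusted p under 0.05 there were 2 members in ISF and 3 in SF, against 3195 and 3283 of all 14570 genes. Voom called no member in either fluid, against 1410 of all genes in ISF and 515 in SF. The replicate block called CSF3R in both fluids, as given above, against 14.5% of all genes in ISF and 9.95% in SF.

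Of the markers of cells that carry FLT3, more had a lower than a higher median in ISF, but the sums were carried by PROM1, BATF3 and TCF4. The 6 dendritic cell markers in the table other than FLT3 summed to 6.91 to 12.9 GeTMM (median 8.61) in SF and 6.64 to 14.3 (10.1) in ISF at 96 h. At 6 d they summed to 1.44 to 10.3 (8.65) and 5.55 to 15.5 (7.56), and at 10 d to 5.26 to 16.5 (8.50) and 3.85 to 7.25 (5.48). The 6 stem or progenitor markers summed to 3.59 to 28.1 (12.1) in SF and 2.34 to 23.8 (11.6) in ISF at 96 h, 3.11 to 30.3 (8.19) and 1.12 to 13.2 (6.92) at 6 d, and 2.06 to 12.6 (7.96) and 1.04 to 31.1 (15.5) at 10 d. The 2 fluids overlapped in both sums at all 3 times. Of the 6 stem or progenitor markers, 4 had a lower median in ISF at 96 h, 5 at 6 d and 5 at 10 d, and of the 6 dendritic cell markers 3, 3 and 4. HLF had medians of 0.678, 0.678 and 0.559 GeTMM in SF and 0.319, 0.189 and 0.225 in ISF at these times. KIT had 0.544, 0.376 and 0.354 in SF and 0.357, 0.239 and 0.119 in ISF. CD1C had 0.936, 0.903 and 0.302 in SF and 0.636, 0.341 and 0.103 in ISF. All 3 were thus lower in ISF in the median at each time, as FLT3 was. BATF3 was higher in ISF at 96 h (5.59 against 1.67) and 6 d (3.21 against 1.19), and the higher progenitor sum in ISF at 10 d came from PROM1 (13.98 against 6.02). No marker of either list was at 0 throughout a group, but CLEC9A stayed under 0.5 GeTMM in every library of 5 of these 6 groups. Markers of other lineages moved with the fluid as well. The median sum of the T cell markers at 96 h, 6 d and 10 d was 90.1, 129.3 and 102.8 GeTMM in SF and 45.1, 32.4 and 7.61 in ISF. That of the B cell markers was 48.8, 55.3 and 44.1 in SF and 21.1, 10.2 and 6.35 in ISF, and the neutrophil precursor sums given above were also lower in ISF at these times. The part of any of these cells in the FLT3 result was not tested.

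CSF1 and CSF1R ran against each other across the horses in ISF, a relation that was chosen for a test after the values were seen. At 96 h the 3 horses with the lowest CSF1, at 3.58, 5.17 and 13.5 GeTMM, had CSF1R at 370, 347 and 277, whereas the 2 with the highest, at 89.5 and 89.7, had 93.4 and 110. At 6 d the 3 lowest, at 4.44, 4.89 and 15.4, had CSF1R at 425, 570 and 426, and the other 5, at 42.6 to 109, had 154 to 372. Catnip and Flash were the 2 lowest in CSF1 at both times. IL34 was also lowest in these 2 horses, at 0 to 0.082 GeTMM at 96 h and 0 to 0.205 at 6 d.

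Pearson's r of log2(GeTMM + 1) was -0.932 at 96 h (n = 8, exact permutation p = 0.00124, two-sided, adjusted over 9 groups 0.0112) and Spearman's rho was -0.952 (exact permutation p = 0.00114, adjusted 0.0103). At 6 d r was -0.871 (n = 8, exact permutation p = 0.00394, adjusted 0.0177) and rho -0.881 (exact permutation p = 0.00724, adjusted 0.0326). Without the 2 horses farthest from the median, Catnip and Flash in both cases, r was -0.939 and -0.838. Among all tested genes, 0.655% had a correlation with CSF1 as low as this at 96 h and 2.65% at 6 d. Both values of a pair come from the same library, so the doubt about horse labels does not touch the relation. The adjustment covers the 9 groups but not the choice of these 2 genes after the values were seen. The p-values therefore cannot measure how often such a relation arises by chance. The 2 time points come from the same 8 horses and are not independent.

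In the other 7 groups the adjusted p of the relation was 0.154 or higher for Pearson's r and 0.249 or higher for rho. Pearson's r was -0.399 at 48 h and -0.726 at 10 d in ISF, and the latter fell to 0.0242 without Catnip and Dealings. In SF it was -0.72, -0.602, 0.421 and -0.0269 from 48 h to 10 d, and at 0 h 0.615. Whether the relation differed between the fluids was not tested.

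**Figure D4:**
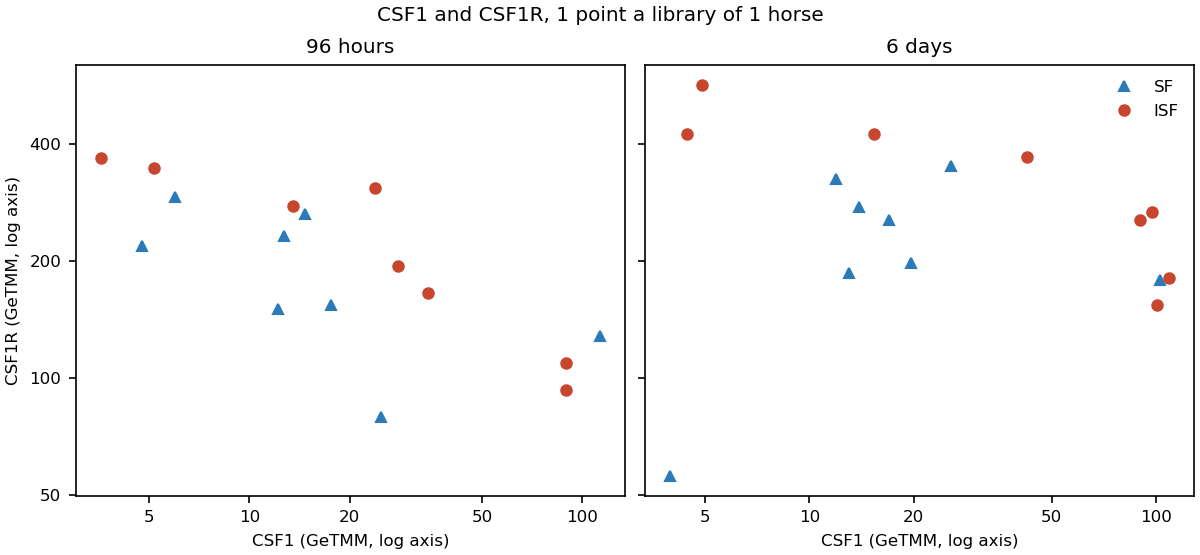
CSF1 on the x axis and CSF1R on the y axis, both in GeTMM on log axes, at 96 h (left) and 6 d (right), with 1 point per library of SF (triangles) and ISF (circles), n = 8 each. The ISF points run from low CSF1 with high CSF1R to high CSF1 with low CSF1R (r of -0.932 and -0.871), while the SF library of Moon lies at the lower left at 6 d with 3.96 and 55.9 GeTMM.

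CSF1 exceeded IL34 in all 68 libraries. Where IL34 had reads, the ratio had a median of 30.2 in ISF at 96 h, 25 at 6 d and 20.3 at 10 d. In SF it was 127 at 96 h, 77.7 at 6 d and 59.3 at 10 d. The smallest ratio was 1.63, in the SF library of Moon at 6 d. Without that library it was 5.82, in the SF library of Lurie at 10 d, which held IL34 at 9.69 GeTMM.

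The genes around these receptors were followed as a list of 42 ligands, adaptors, kinases, phosphatases and transcription factors of the pathways, of which 40 were in the table and 38 were tested. Between the fluids 0 of 38 differed at 48 h, 3 were higher and 3 lower in ISF at 96 h, 11 higher and 7 lower at 6 d, and 1 higher and 7 lower at 10 d. These are 0%, 15.8%, 47.4% and 21.1% of the list, compared with the 1.68%, 10.5%, 30.2% and 20.8% of all genes given above. The median log2 difference of the list was -0.06, 0.00, 0.09 and -0.10, against -0.02, 0.00, 0.00 and -0.02 over all genes. The alternatives were run for the members only. The values of the list at 6 d include the SF library of Moon and were not recomputed without it. Over all genes, 4405 were called at 6 d with that library and 5274 without it.

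SOCS3, a feedback inhibitor of cytokine receptors including CSF3R, was higher in ISF at 96 h (1.63, SE 0.36, FDR = 0.0011) and at 6 d (1.62, SE 0.36, FDR = 0.000342). CEBPB, a transcription factor of myeloid cells, was higher by 0.93 (SE 0.24, FDR = 0.00588) and 1.12 (SE 0.24, FDR = 0.000183). The third gene that was higher at 96 h was the kinase LYN (0.56, FDR = 0.0175).

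The genes lower in ISF at 96 h were the transcription factors KLF4 (-0.90, FDR = 0.0137), MITF (-0.64, FDR = 0.0148) and IRF8 (-0.41, FDR = 0.0157). At 6 d the largest falls were in CEBPE (-2.03, FDR = 0.0156) and GFI1 (-1.82, FDR = 0.000107), both transcription factors of granulocyte maturation, and in PIK3CD (-0.86, FDR = 0.00167), a subunit of phosphoinositide 3-kinase. At 10 d PIK3CD (-1.41, FDR = 6.09e-06), GFI1 (-1.25, FDR = 0.0178) and STAT5B (-1.15, FDR = 4.42e-06), which carries signals of cytokine receptors, were lowest. The only gene of the list that was higher then was the kinase MAPK3 (0.63, FDR = 0.00155).

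Over 10 d 8 genes of the list rose and 26 fell in ISF, and 10 rose and 24 fell in SF. This is 89.5% of the list in both, against 74.5% and 69.6% of all genes. SDC1, a surface proteoglycan that also binds IL-34, rose by 5.66 (SE 0.27) in ISF and 5.39 (SE 0.27) in SF. MITF, by 3.82 and 3.98, was next in both fluids. The changes of CEBPE were -6.54 (SE 0.69) and -5.72 (SE 0.69), those of GFI1 -4.55 and -3.31, and those of PIK3CD -4.46 and -3.05.

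The difference between the fluids changed between 48 h and 10 d for 3 genes of the list. They were CISH, an inhibitor induced by STAT5 (-1.40, SE 0.32, FDR = 0.00642), IRF8 (-0.73, FDR = 0.0128) and STAT5A (-0.59, FDR = 0.0163). All 3 moved lower in ISF relative to SF. None of the list was called by the 3 tests of shorter intervals.

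The genes whose level ran most like that of each member were found by Pearson's r over the 68 libraries, which share time points and horses, and are given as a description. CSF1 ran most like MYOF (0.887), EGR2 (0.855) and TTC39B (0.845). CSF1R ran most like SH3D19 (0.921), SESTD1 (0.913) and MTSS1 (0.907). CSF3R ran most like ILT11B (0.969), PEAK3 (0.966) and DGAT2 (0.964), and FLT3 most like PLBD1 (0.898), MCTP1 (0.887) and TRIM13 (0.887). IL34 ran most like CACNA1H (0.835), IL17RC (0.82) and TNFAIP8L3 (0.809), and CSF3 most like HDAC7 (0.80), CNGB3 (0.79) and NFX1 (0.787). Among the members themselves the highest r was between CSF3R and FLT3 (0.756) and the lowest between CSF1R and CSF3R (-0.708). CSF1 and CSF1R had an r of 0.142 over all libraries.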

How the data were processed

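RNA was sequenced from BMNC of 8 horses in 68 libraries. The authors mapped reads to EquCab 3.0 with STAR 2.7.2a, per the labels, and counted them per gene. They deposited the counts as GeTMM, a unit like RPKM that is scaled between libraries, with no logarithm taken. The Ensembl genes carry symbols for 17214 of 30371 rows, and members were found by symbol.

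A gene was tested if 7 or more libraries reached 0.5 GeTMM (14570 genes), as log2(GeTMM + 1), with limma 3.58.1 in R 4.3.3 (two-sided, Benjamini-Hochberg FDR under 0.05), in 1 fit of all libraries and 9 groups without a term for horse. The test was also run on simulated reads without differences between horses, which cannot show how it behaves with repeated horses. The deposited unit is no count, so the authors' DESeq2 test was not repeated. The reads behind the values were recovered from the steps of the table. For each gene a length was chosen that put all its values within 0.02 reads of a whole number. Such a length was found for all 24065 genes above 0, which is the rule of the recovery and not a check of it. The recovered reads give the depth of 15.7 to 36.0 M reads on genes per library.

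The ISF and SF cultures of a horse pair by animal. The correlation of their deviations from the group means had a median of 0.207 to 0.455 over the 4 time points, so the horse was added as a replicate block in an alternative. Correlations of CSF1 with CSF1R used exact permutation tests in Python 3.11.15 with scipy 1.17.1. All members, the 3 genes most like each tested member, and the called pathway genes with the 3 highest and 3 lowest log2 differences are named, except for some that are not reported here. Members and lists were chosen with earlier results of these data known. Marker lists for T cells, B cells, erythroid, endothelial and dividing cells were also summed. They ranged over all libraries from 4.33 to 321 GeTMM for T cells, 1.29 to 158 for B cells and 0.285 to 1230 for erythroid cells. The sums were 26.8 to 152 for endothelial and 18.8 to 228 for dividing cells. The endothelial sum was carried by PECAM1, at 122.4 to 151.2 GeTMM at 0 h. CDH5, VWF and KDR had medians of 0.271, 0.142 and 0.342 there.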

Additional observations from a re-analysis of the deposited data

Results flagged for a closer look

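Of the 54 sets examined (6 tested members in 9 groups), 7 held a library far from the others by Dixon's test at its 95% critical value. The rate of about 1 in 20 flagged by chance does not hold for sets mostly at 0, such as IL34 at 0 h and in SF at 48 h. The count of 7 can therefore not be set against it. IL34 held 4 of the 7 flagged sets. The library of Dealings was the highest at 0 h (0.0904 GeTMM), in SF at 48 h (0.498) and in SF at 96 h (0.512), where the others lay at or near 0 on few reads. In SF at 10 d the library of Lurie stood at 9.69 GeTMM of IL34, with 1.87 the next highest, and its stromal markers summed to 4038 GeTMM. CSF1R in the SF library of Moon at 6 d was 55.9 GeTMM, against 179 to 352 in the others. CSF3R was lowest in the library of Ollie at 0 h (367 GeTMM) and in the SF library of Dealings at 96 h (55.1 GeTMM).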

How the results depend on the processing

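The 18 counts of called members were recomputed under 19 alternatives, of which 2 (the replicate block without the 96 h libraries of Dealings and Dreamer in ISF, and leaving out the SF library of Lurie at 10 d) were chosen after seeing the data, as were all alternatives for the relation of CSF1 and CSF1R. Of these 342 counts, 295 lay within 1.5 times the count in the report and 47 did not. No named value past the threshold changed its sign, and 1977 single values kept their side of the threshold, 32 lost it and 27 gained it. Gains and losses follow the adjustment over all genes as well as the members' own values, and the cause was not tested. The limits are the few reads of IL34, CSF3 and CSF2, the 7 or 8 horses in a group, and 1 well per condition.

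With the replicate block, the samples of a horse being paired by animal, the count was 2 for ISF against SF at 6 d, 3 in SF from 0 to 48 h, 3 in SF from 48 to 96 h, and 1 from 6 to 10 d in ISF and 1 in SF, in each case also without the 2 crossed libraries. The block called 36.1%, 49.8%, 32.0%, 14.5% and 9.95% of all genes in these 5 comparisons, compared with 30.2%, 45.4%, 27.3%, 10.5% and 4.78% without it. The block changed no other count by over 1.5 times. IL34 passed in ISF from 48 to 96 h with it (0.85, FDR = 0.045).

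For ISF against SF at 96 h the count was 1 with no filter, the stricter filter, median ratio scaling or limma voom on recovered reads. It was also 1 without the libraries of Dealings and Dreamer in ISF. IL34 was lost or not tested in these settings. They called 1243, 1439, 1460, 1532 and 901 of all genes in this order, compared with 1524 in the report. No filter left 24065 genes to test and the stricter filter 11636. At 6 d the count was 2 without the SF library of Moon, where IL34 was added (0.87, FDR = 0.0482). In that setting 5274 of all genes were called, compared with 4405 in the report. At 10 d the count was 1 with a pseudocount of 0.1, 1 with the stricter filter and 1 with only the groups compared. There 2931, 2500 and 2974 of all genes were called, compared with 3027 in the report. A fit of only the groups compared gave 5 in ISF and 3 in SF from 0 to 48 h and 2 in SF from 48 to 96 h, where it called 58.9%, 52.3% and 35.8% of all genes. The stricter filter, which left out CSF3 and IL34, gave 0 in SF from 0 to 48 h (5623 of all genes called, compared with 6615). No filter gave 1 in ISF from 96 h to 6 d (710 of all genes called, compared with 929).

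Leaving out each horse in turn, by label, gave 1 to 2 members for ISF against SF at 96 h and at 10 d. At 96 h the count was 1 without Dealings, Dreamer, Lurie, Ollie or RimRun. There 958, 882, 939, 983 and 1521 of all genes were called, compared with 1524 with all horses. At 10 d it was 1 without Catnip, Dealings, Dreamer, Moon, Ollie or RimRun. There 2299, 1945, 2206, 4086, 2588 and 2518 of all genes were called, compared with 3027. In ISF leaving out a horse gave 0 to 2 members from 96 h to 6 d and 0 to 1 from 6 to 10 d. From 96 h to 6 d the count was 0 without Ollie or RimRun (422 and 433 of all genes called). It was 1 without Dealings, Dreamer or Lurie (668, 575 and 604 genes), and all horses together gave 929 genes. From 6 to 10 d it was 1 without Dealings (1089 genes, compared with 1533). In SF the count was 1 to 2 from 0 to 48 h (2 without Catnip, with 6158 of all genes called, compared with 6615). From 48 to 96 h it was 1 to 2 (2 without Moon, with 4945 genes, compared with 3982). From 96 h to 6 d it was 0 to 1. It was 0 without Dreamer, Ollie or RimRun, with 167, 151 and 147 genes, compared with 298. From 6 to 10 d it was 0 to 1 (1 without Catnip, with 485 genes, compared with 696). The correlation of CSF1 with CSF1R in ISF ran from -0.985 to -0.909 at 96 h and from -0.900 to -0.812 at 6 d when a horse was left out.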
